A study of Danio rerio with 3 samples.

Results

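A set of 10 genes expressed in the macrophages and neutrophils of the early zebrafish embryo was followed in RNA-seq libraries of whole embryos at 36 hpf. Of the 10 genes, cxcr4b is also expressed outside leukocytes. The genes were taken as the rows of the deposited count table named spi1b, mpx, lyz, lcp1, coro1a, mpeg1.1, cybb, mmp13a, cxcr4b or marco. The names were chosen with earlier results of these data known. These 10 names took 11 of the 32520 rows, because mmp13a names 2 rows, and all 11 rows passed the filter of a mean of at least 10 counts that left 18966 rows of all genes. The libraries were labelled setd2-/- (HO), setd2+/- (HE) and wild type (WT), with 1 library per genotype, and the embryos were of the Tubingen strain. The study describes them as littermates, gives N-phenylthiourea, a blocker of pigmentation, in its husbandry, and names E3fs1, a CRISPR/Cas9 frame-shift line, as its default mutant, whereas the labels name no line. The number of embryos in a library is not given in the sources used here. With 1 library per genotype no difference has a replicate check, so no p-value is given, and a difference between libraries is set only against counting error.

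Primitive myeloid cells are the first leukocytes of the embryo. In zebrafish they arise from mesoderm at the front of the embryo under the transcription factor Pu.1, spread over the yolk and into tissues as macrophages, and also give the first neutrophils before blood stem cells contribute. Macrophages engulf dead cells and microbes and carry scavenger receptors and pore-forming proteins, and neutrophils carry granules of peroxidase and lysozyme. In RNA of whole embryos these cells are a small part, and fewer cells of a type and less RNA per cell cannot be told apart.

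The counts summed to 14160325 in the HO library, 12760683 in the HE library and 13340950 in the WT library. They were scaled by TMM and given as CPM, the count over the scaled sum of its library. A log2 ratio is the difference of log2 CPM between 2 libraries after a prior count of 2 is added. Where counts are low, it is therefore smaller in size than the printed CPM would give. The 95% interval of a ratio is the exact binomial interval of the 2 counts without the prior count, and covers counting error only. The targeted gene, setd2, had 2087 counts in HO, 1380 in HE and 1348 in WT, with a log2 ratio of 0.55 (0.45 to 0.65) for HO against WT. The mRNA of setd2 was thus not lower in the library labelled HO, and the directions given here rest on the labels. On the RefSeq assembly GRCz12tu, 0 of the 10 genes were on chromosome 16, which carries setd2, while lcp1, cxcr4b and marco were on chromosome 9 and mpx and mmp13a on chromosome 10. Genes of other tissues of a whole embryo were present, with 29866, 30658 and 28165 counts of the embryonic globin hbae3 and 886, 671 and 828 counts of the endothelial receptor kdrl in HO, HE and WT.

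Together the 11 rows held 2175 counts in HO, 2160 in HE and 1901 in WT. This was 0.0154% of the HO library (exact Clopper-Pearson 95% interval 0.0147 to 0.0160%), 0.0169% of the HE library (0.0162 to 0.0177%) and 0.0143% of the WT library (0.0136 to 0.0149%). The peroxidase gene mpx was the largest part of these counts, at 27.4% in HO, 32.4% in HE and 27.6% in WT. The chemokine receptor gene cxcr4b followed at 20.1%, 19.7% and 20.4% in the same libraries.

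Per length of transcript, the levels of the 10 genes spread widely within each library. In HO the deposited FPKM was 18.44 for cxcr4b, 16.51 for lyz, 11.45 for coro1a, 11.23 for mpx and 9.40 for lcp1, and then 4.32 for mpeg1.1, 1.65 for cybb, 1.38 and 1.3 for the mmp13a rows, 1.2 for spi1b and 0.65 for marco. The first 5 genes lay between the 66.1 and 81.8 percentiles of FPKM among the tested genes in HO, whereas marco lay at the 8.41 percentile. In HE, cxcr4b and lyz were again highest, with FPKM of 19.90 and 19.36, and in WT with 17.37 and 14.92. Neighbours in this order often lay within counting error of each other. The intervals of coro1a (10.2 to 12.8 FPKM) and mpx (10.3 to 12.2 FPKM) overlapped in HO, as did those of spi1b (0.864 to 1.62 FPKM) and marco (0.391 to 1.01 FPKM), while in HE mpx at 14.59 FPKM (13.5 to 15.7) stood above coro1a at 10.81 (9.51 to 12.2).

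**Figure D1:**
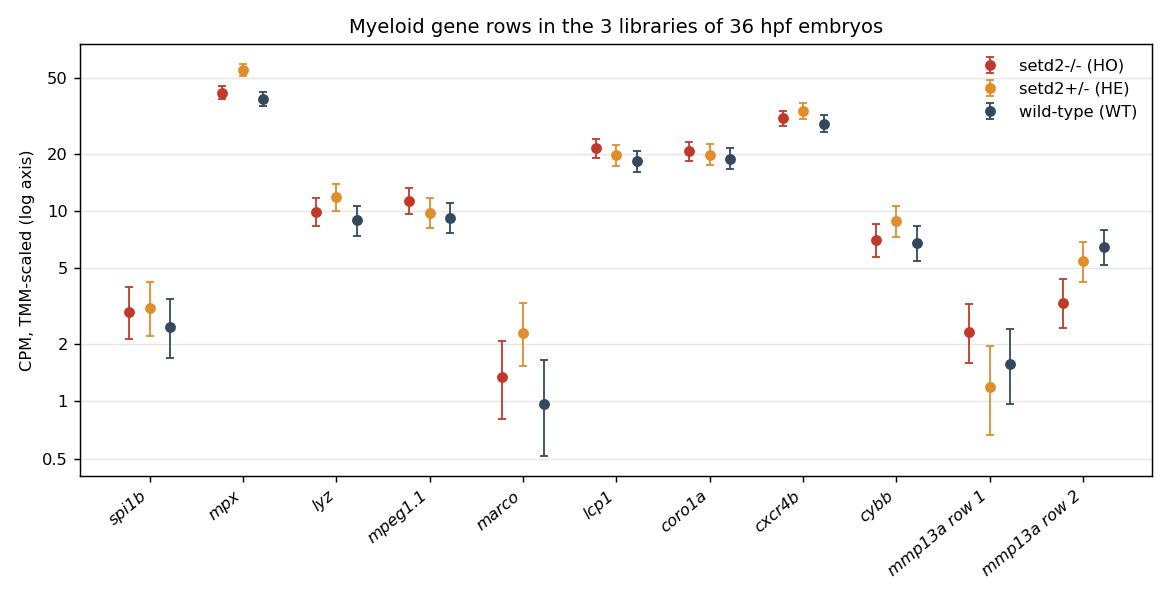
Level of each of the 11 rows in CPM, scaled by TMM, on a log axis, in the HO, HE and WT libraries from left to right within each gene. Points are single libraries and bars are exact 95% Poisson intervals of the count. For mpx the HE library, at 55.4 CPM, stood above HO at 42.0 and WT at 39.0 CPM, and for the second mmp13a row HO was lowest at 3.30 CPM.

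The first question was whether the myeloid genes differed between homozygous and wild-type embryos. Their summed level was slightly higher in HO, and the difference was within counting error for most single genes. In HO, 10 of the 11 rows were higher than in WT, where 49.1% of all tested genes were higher, and the median log2 ratio of the rows was 0.15 against −0.004 for all tested genes. No row was higher past counting error (11.8% of all tested genes were) and 1 row, the second of mmp13a, was lower past it (11.6% of all tested genes). The summed counts of the rows, at 152.9 CPM in HO and 141.5 CPM in WT, gave a log2 ratio of 0.11 (0.023 to 0.20). Without cxcr4b this ratio was 0.118 (0.018 to 0.219). Without mpx and cxcr4b it was 0.12 (0.0 to 0.25), with the lower end of the interval at 0.0. By size, 1 row was higher by a log2 ratio of at least 0.5 (5.09% of all tested genes) and 1 lower by as much (6.76%). These were the first and second rows of the same gene, mmp13a, which had −0.50 (−0.95 to −0.084) with both rows summed. The first row was within counting error. By 1 or more, 0 rows differed (1.05% of all tested genes higher, 1.34% lower). With the trend over exonic length removed the median of the 11 rows was 0.23.

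The heterozygous library was compared with the wild-type library in the same way. Here the granule genes mpx and lyz, the scavenger receptor gene marco and cxcr4b were higher in HE past counting error, which made 4 of 11 rows, against 13.1% of all tested genes. No row was lower past counting error (12.3% of all tested genes were). In all, 9 of the 11 rows were higher in HE, against 51.0% of all tested genes, with a median log2 ratio of 0.22 against 0.007 for all tested genes. A log2 ratio of at least 0.5 was reached upward by 2 rows, mpx and marco (5.36% of all tested genes), 1 of which reached 1, marco (0.981%), and downward by 0 rows (8.25% at 0.5 and 1.71% at 1). The summed counts gave 171.2 CPM in HE and 141.5 CPM in WT, a log2 ratio of 0.28 (0.19 to 0.37), which was 0.18 (0.069 to 0.28) without mpx. With the trend over exonic length removed, the median of the 11 rows was 0.175, and 3 rows were higher past counting error. Since both comparisons use the WT library, a low value in that library enters each of them.

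The HO and HE libraries were also compared directly, which does not use the WT library. Of the 11 rows, 7 were lower in HO, against 51.5% of all tested genes, and the median log2 ratio was −0.13 against −0.009 for all tested genes. There, 2 rows were lower past counting error, those of mpx and the second of mmp13a, against 15.2% of all tested genes, and 1 was higher, the first of mmp13a, against 13.8%. By a log2 ratio of at least 0.5, 1 row was higher, the first of mmp13a (7.65% of all tested genes). By as much, 2 were lower, marco and the second row of mmp13a (6.72%). By 1 or more, 0 rows differed (1.43% higher, 1.26% lower). The summed level of the rows was 152.9 CPM in HO and 171.2 CPM in HE, with a log2 ratio of −0.16 (−0.25 to −0.076). Without mpx this ratio was −0.062 (−0.17 to 0.042), within counting error. With the trend over exonic length removed, the median of the rows was −0.072.

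WT was the lowest of the 3 libraries for 9 of the 11 rows, and for 31.2% of all tested genes. HE was the highest for 6 rows, against 36.3% of all tested genes, and HO for 4 rows, against 32.6%. The exceptions to the first were the mmp13a rows, of which HE was lowest for 1 (33.8% of all tested genes) and HO lowest and WT highest for the other (35.0% and 31.1%). These numbers of rows were also found with DESeq2 size factors and with scaling by total counts. Both scalings lie close to TMM here, so they could hardly give other numbers. Past counting error, 0 rows were higher in HO than in WT (11.8% of all tested genes) and 4 in HE than in WT (13.1%). For mpeg1.1, HE and WT had 124 counts each, so that WT was lowest by scaling alone. The erythroid genes, which belong to another primitive blood lineage, were likewise lowest in WT for 8 of 10 tested genes. Their summed level was 4021 CPM in HO, 4244 CPM in HE and 3283 CPM in WT. This sum is weighted to abundant genes such as the globin hbbe1.1, with 10139, 9459 and 3218 counts in HO, HE and WT. The most abundant, hbae3, had a log2 ratio of 0.003 (−0.021 to 0.026) for HO against WT. For HE against WT it had 0.21 (0.19 to 0.24). How reads that fit several globin genes were counted is not shown. The erythroid regulators gata1a, with 98, 91 and 99 counts, and klf1, with 140, 120 and 124, were within counting error in each comparison. The part of a low WT library in the myeloid values was not tested.

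**Figure D2:**
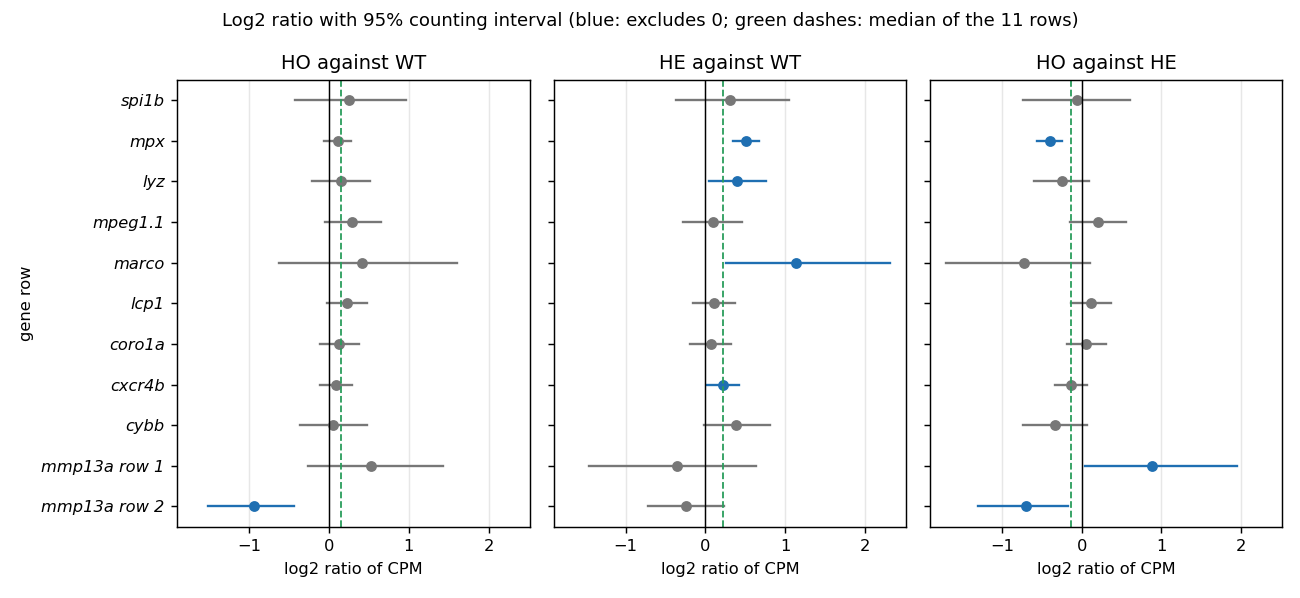
Log2 ratio of CPM for each row in HO against WT, HE against WT and HO against HE, with exact 95% counting intervals as lines. Blue marks intervals that exclude 0, which were 1, 4 and 3 of the 11 rows, and the dashed line is the median of the rows at 0.15, 0.22 and −0.13.

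The gene spi1b encodes Pu.1, the ETS-family transcription factor that directs cells to the myeloid fate. It had 42 counts in HO, 39 in HE and 33 in WT, or 2.95, 3.09 and 2.46 CPM. The log2 ratio was 0.25 (−0.43 to 0.97) for HO against WT and 0.32 (−0.37 to 1.05) for HE against WT. HE was highest and WT lowest, and each difference was within counting error at this depth. Among other transcription factors of myeloid and blood progenitor cells, 13 of 16 listed genes were tested, with a median log2 ratio of 0.010 for HO against WT, which was −0.027 with a minimum mean of 100 counts, and 0.088 for HE against WT. Of them, 2 were higher and 1 lower past counting error in HO against WT (11.8% and 11.6% of all tested genes). The higher genes were myb, a regulator of blood stem cells, with 548, 433 and 451 counts in HO, HE and WT and a log2 ratio of 0.20 (0.017 to 0.38) for HO against WT, and ikzf1, which encodes Ikaros, with 55, 36 and 28 counts and a ratio of 0.85 (0.21 to 1.60). The lower gene was cebpb, a bZIP factor of macrophage activation, with 375, 479 and 461 counts and a ratio of −0.38 (−0.58 to −0.18). The related cebpa, required for granulocytes, had 472, 486 and 466 counts, and the second pu.1-like gene, spi1a, had 63, 49 and 49. The zinc finger gene gata2a, also listed with the mast cell genes, had 630, 605 and 591 counts. For HO against HE, 2 of the 13 were lower and 0 higher past counting error (15.2% and 13.8% of all tested genes). The lower ones were cebpb, with −0.52 (−0.73 to −0.33), and cebpa, with −0.21 (−0.40 to −0.029). The cells of origin of these factors are not separated in libraries of whole embryos.

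Both granule genes were highest in HE. The gene mpx encodes myeloperoxidase, which makes hypochlorous acid in neutrophil granules, and it had 597 counts in HO, 699 in HE and 524 in WT. Its log2 ratio was 0.11 (−0.065 to 0.28) for HO against WT, 0.51 (0.34 to 0.67) for HE against WT and −0.40 (−0.56 to −0.24) for HO against HE. HE was thus above both other libraries past counting error, and HO and WT were within it. The gene lyz encodes lysozyme C, which cleaves bacterial cell walls and in zebrafish embryos marks neutrophils and some macrophages. It had 141, 149 and 120 counts in HO, HE and WT, and its log2 ratio was 0.15 (−0.21 to 0.51) for HO against WT and 0.40 (0.047 to 0.76) for HE against WT. Between HO and HE its log2 ratio of −0.25 (−0.60 to 0.090) was within counting error. The order of the 3 libraries was the same for mpx and lyz, with HE highest and WT lowest.

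Of 9 further granulocyte genes, 8 were tested, and they moved in both directions. Their median log2 ratio was 0.050 for HO against WT, with 1 higher and 1 lower past counting error (11.8% and 11.6% of all tested genes). It was −0.21 for HE against WT, with 2 higher and 2 lower (13.1% and 12.3% of all tested genes). Both medians changed sign with a minimum mean of 100 counts, at −0.032 and 0.008, and the summed counts of the list had log2 ratios of 0.12 (0.006 to 0.23) and 0.076 (−0.040 to 0.19). The higher gene in HO against WT was npsn, which encodes the astacin-like protease nephrosin of neutrophils, with 592, 532 and 436 counts in HO, HE and WT and a log2 ratio of 0.36 (0.18 to 0.54). In HE against WT it had 0.38 (0.19 to 0.56), so that WT was lowest, as for mpx, but HO and HE were close, with −0.019 (−0.19 to 0.15). Within a library the ratio of npsn to mpx counts was 0.992 in HO, 0.761 in HE and 0.832 in WT, with a log2 odds ratio of 0.38 (0.15 to 0.62) for HO against HE. The proteoglycan gene srgn, which packs granule contents in blood cells, had 237, 290 and 208 counts. This gave a log2 ratio of 0.57 (0.31 to 0.83) for HE against WT and −0.46 (−0.72 to −0.21) for HO against HE, an order like that of mpx. The gelatinase gene mmp9 went the other way, with 151, 78 and 179 counts and log2 ratios of −0.32 (−0.65 to −0.007) for HO against WT and −1.09 (−1.51 to −0.72) for HE against WT. The protease gene adam8a had 205, 159 and 218 counts and was also lower in HE than in WT past counting error. The receptor gene cxcr1 had 0 counts in each library, where a count of 0 allows up to 3 counts, or 0.211 CPM in HO, 0.238 CPM in HE and 0.223 CPM in WT.

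Both macrophage genes were lowest in WT, and mpeg1.1 was highest in HO and marco in HE. The gene mpeg1.1 encodes perforin-2, a pore-forming protein of macrophages, and had 161 counts in HO, 124 in HE and 124 in WT. The log2 ratio of mpeg1.1 was 0.29 (−0.052 to 0.65) for HO against WT, 0.090 (−0.28 to 0.46) for HE against WT and 0.20 (−0.14 to 0.55) for HO against HE, each within counting error. Its copy mpeg1.2, with 31, 18 and 39 counts, was lower in HE than in WT past counting error. Reads that fit these related genes equally could be divided between them by the counting, so the value of each is uncertain to that extent. The gene marco encodes a class A scavenger receptor that binds bacteria and particles, and had 19, 29 and 13 counts in HO, HE and WT. The log2 ratio of marco was 0.41 (−0.63 to 1.60) for HO against WT and 1.13 (0.26 to 2.32) for HE against WT, past counting error on few counts. Between HO and HE the ratio of −0.72 (−1.70 to 0.10) was within counting error.

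Other macrophage genes were also listed. Of 15 listed names, 13 were in the table and 8 were tested, with a median log2 ratio of −0.21 for HO against WT and −0.45 for HE against WT. In HE against WT, 4 were lower and 0 higher past counting error (12.3% and 13.1% of all tested genes). In HO against WT, 2 were higher and 1 lower (11.8% and 11.6% of all tested genes). The median of HO against WT was 0.37 with a minimum mean of 100 counts, with a change of sign, and −0.027 with no filter on low counts. That of HE against WT was −0.21 with no filter and −0.28 on FPKM with a pseudocount of 1. The summed counts of the list gave 0.26 (0.14 to 0.38) for HO against WT and −0.39 (−0.53 to −0.25) for HE against WT. These sums depend on ctss2.1, which alone held 626 of 1274 counts in HO, 181 of 721 in HE and 364 of 1006 in WT. The cathepsin S genes, which encode lysosomal proteases of antigen-presenting cells, had the highest and the lowest ratio of the list in HO against WT. The gene ctss2.1 had 626, 181 and 364 counts in HO, HE and WT, with log2 ratios of 0.70 (0.51 to 0.89) for HO against WT and −0.91 (−1.18 to −0.66) for HE against WT. The gene ctss2.2 had 18, 29 and 60 counts, with a ratio of −1.71 (−2.67 to −1.04) for HO against WT, the opposite direction. How reads that fit both of these genes were counted is not shown, so each value is uncertain to that extent. The receptor gene csf1ra, through which macrophages and also pigment cells receive the survival factors Csf1 and Il34, had 222, 175 and 245 counts and was lower in HE than in WT by a log2 ratio of −0.39 (−0.68 to −0.11). The transporter gene slc7a7, which marks the precursors of microglia, had 290, 225 and 212 counts and a ratio of 0.37 (0.11 to 0.63) for HO against WT. Of the 8 tested genes, 1 was lowest in WT (31.2% of all tested genes). The complement genes c1qa, c1qb and c1qc, which mature macrophages express, had at most 8 counts in a library.

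**Figure D3:**
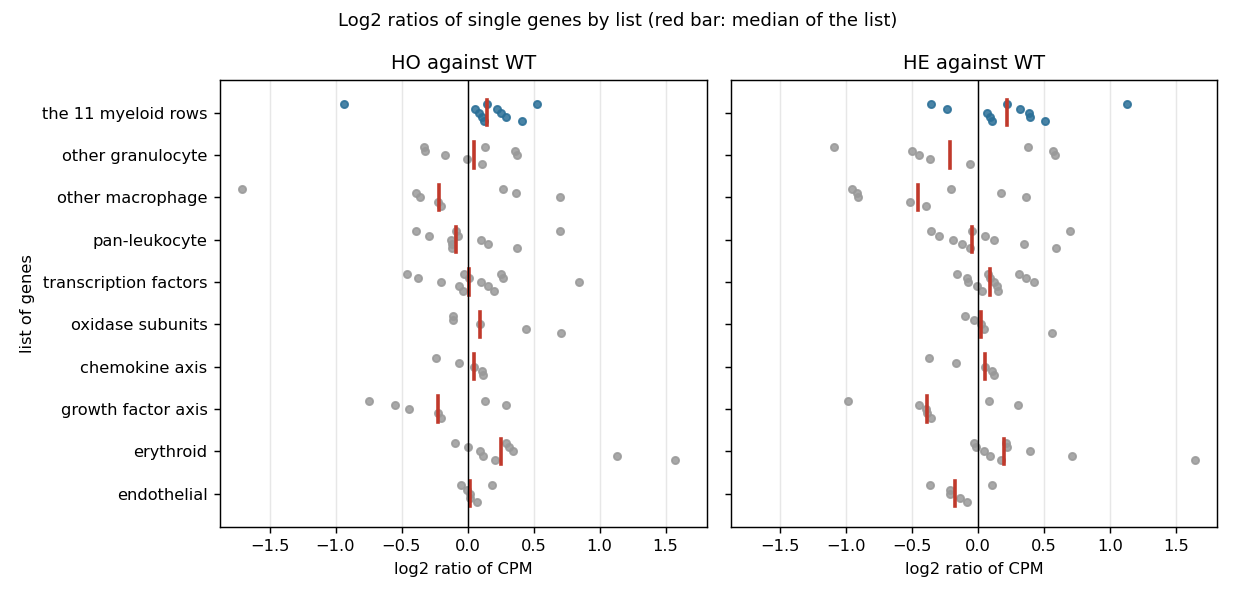
Log2 ratio of CPM for single genes (points) in HO against WT and HE against WT, by list, with the median of each list as a red bar. The 11 myeloid rows have medians of 0.15 and 0.22, whereas the other macrophage genes have −0.21 and −0.45, and the erythroid genes 0.25 and 0.19.

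The ratio of granulocyte to macrophage counts within a library does not depend on scaling. The counts of mpx and lyz summed to 738 in HO, 848 in HE and 644 in WT, and those of mpeg1.1 and marco to 180, 153 and 137. The ratio of the sums was therefore 4.1 in HO, 5.54 in HE and 4.70 in WT. Between HO and HE it differed past counting error, with a log2 odds ratio of −0.43 (exact conditional 95% interval −0.79 to −0.083), while HO against WT, with −0.20 (−0.56 to 0.17), and HE against WT, with 0.24 (−0.14 to 0.61), were within it. When the other granulocyte and macrophage genes were added to the sums, the values were −0.68 (−0.83 to −0.53), −0.15 (−0.29 to −0.003) and 0.53 (0.37 to 0.69) in the same order. Without ctss2.1 and ctss2.2 these were −0.23 (−0.40 to −0.056), 0.027 (−0.15 to 0.20) and 0.26 (0.077 to 0.44). For mpx over mpeg1.1 alone they were −0.60 (−0.99 to −0.22), −0.19 (−0.58 to 0.20) and 0.41 (0.007 to 0.82). Taken as a difference between the medians of FPKM ratios they were −0.038, −0.26 and −0.22, so that the sign for HE against WT turned. Of the counts of mpx and lyz, mpx held 597 in HO, 699 in HE and 524 in WT. For HO against HE the 8 other tested granulocyte genes had a median log2 ratio of 0.31, with 5 higher and 3 lower (48.5% and 51.5% of all tested genes). Past counting error 2 of them were higher and 1 lower (13.8% and 15.2%), and the summed counts of their list gave 0.041 (−0.071 to 0.15).

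The members of the leukocyte cytoskeleton were within counting error in each of the 3 comparisons. The gene lcp1 encodes L-plastin, which bundles actin in leukocytes, and had 304 counts in HO, 249 in HE and 246 in WT. Its log2 ratio was 0.22 (−0.024 to 0.47) for HO against WT and 0.11 (−0.15 to 0.37) for HE against WT, with 0.11 (−0.13 to 0.36) for HO against HE. The gene coro1a encodes coronin 1A, which controls branched actin in blood cells, and had 294, 250 and 254 counts. Its log2 ratio was 0.13 (−0.12 to 0.38) for HO against WT and 0.068 (−0.19 to 0.33) for HE against WT, with 0.061 (−0.19 to 0.31) for HO against HE. HO was highest and WT lowest for both genes, at 21.4, 19.7 and 18.3 CPM for lcp1 and 20.7, 19.8 and 18.9 CPM for coro1a in HO, HE and WT.

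Paralogues of these genes that act in other tissues were listed for comparison. The plastin gene pls3, which is expressed outside blood, had 3590, 3116 and 2802 counts in HO, HE and WT, with log2 ratios of 0.28 (0.20 to 0.35) for HO against WT and 0.24 (0.17 to 0.32) for HE against WT. The intestinal plastin gene pls1 had 50, 29 and 23 counts and a ratio of 0.98 (0.30 to 1.82) for HO against WT. Of 6 tested coronin paralogues, 2 were higher and 2 lower past counting error in HO against WT (11.8% and 11.6% of all tested genes). The higher ones were coro1b, with 1094, 801 and 796 counts and a log2 ratio of 0.38 (0.24 to 0.51), and coro7, with 206, 152 and 151 counts and 0.36 (0.056 to 0.68). The lower ones were coro1ca, with 2230, 1919 and 2289 counts and −0.12 (−0.20 to −0.035), and coro1cb, with 2519, 2198 and 2579 counts and −0.12 (−0.20 to −0.036). Genes shared by leukocytes were also listed, of which 11 were tested, with a median log2 ratio of −0.089 for HO against WT and −0.047 for HE against WT, where the median was 0.037 with a minimum mean of 100 counts. In HO against WT, 0 of the 11 were past counting error in either direction (23.5% of all tested genes), and in HE against WT 1 was (25.5%). This was the phosphatase gene ptpn6, which was higher with 47, 91 and 59 counts in HO, HE and WT. The most abundant were arpc1b, a subunit of the actin-branching Arp2/3 complex, with 594, 610 and 597 counts, hcls1, a cortactin-like actin regulator, with 256, 238 and 262, and the integrin gene itgb2 with 112, 73 and 81. The pan-leukocyte phosphatase gene ptprc (CD45) had 12, 8 and 10 counts.

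The gene cxcr4b encodes a receptor for the chemokine Cxcl12 that holds neutrophils in blood-forming tissue. In zebrafish it also guides the lateral line primordium and primordial germ cells and is expressed in nervous tissue, so that its counts are not those of leukocytes alone. It had 437 counts in HO, 425 in HE and 388 in WT, with a log2 ratio of 0.089 (−0.11 to 0.29) for HO against WT and 0.22 (0.020 to 0.42) for HE against WT. For HO against HE it was −0.13 (−0.33 to 0.063). The higher value in HE against WT was within counting error with scaling by total counts, where the ratio was 0.20, and with the length trend removed, where it was 0.18. Without cxcr4b the median log2 ratio of the remaining rows was 0.18 for HO against WT and 0.21 for HE against WT. Of 9 further genes of the chemokine axis, 5 were tested, with medians of 0.052 and 0.053 in these comparisons, the second being −0.056 with no filter on low counts. The ligand gene cxcl12a had 781, 753 and 773 counts in HO, HE and WT, and cxcl12b had 216, 158 and 189. The scavenger receptor gene ackr3b, which clears Cxcl12, had 1700, 1580 and 1549 counts and was higher in HE than in WT with a log2 ratio of 0.12 (0.018 to 0.22). In HO against WT, 0 of the 5 genes differed past counting error (23.5% of all tested genes). Neither cxcl8a, with 6, 0 and 4 counts, nor cxcl8b.1, with 0, 0 and 4, passed the filter.

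The gene cybb encodes gp91phox, the catalytic subunit of the phagocyte NADPH oxidase, and had 100 counts in HO, 112 in HE and 91 in WT. The log2 ratio of cybb was 0.053 (−0.37 to 0.48) for HO against WT, 0.38 (−0.021 to 0.81) for HE against WT and −0.33 (−0.74 to 0.066) for HO against HE. The order of the libraries was that of mpx, within counting error. Its partners in the enzyme were within counting error. The membrane subunit gene cyba had 101, 100 and 103 counts, the organizer gene ncf1 51, 43 and 45, and the GTPase gene rac2 505, 453 and 516. Of the 5 tested partners, 0 differed past counting error in any of the 3 comparisons. Over all tested genes 23.5% did in HO against WT, 25.5% in HE against WT and 28.9% in HO against HE. The median log2 ratio of the partners was 0.095 for HO against WT and 0.024 for HE against WT, which were −0.11 and −0.025 with a minimum mean of 100 counts. Among the other oxidases, duox, which is expressed in epithelia, had 362, 303 and 226 counts and a log2 ratio of 0.59 (0.35 to 0.84) for HO against WT, and nox1 had 77, 54 and 66 counts.

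The gene mmp13a encodes a collagenase of embryonic myeloid cells, and its counts were divided between 2 gene identifiers whose ratios had opposite signs in both HO comparisons. The first (ENSDARG00000012395, 1694 bases of exon) had 33 counts in HO, 15 in HE and 21 in WT, and the second (ENSDARG00000114451, 2556 bases) had 47, 69 and 87. Between HO and WT the log2 ratio was 0.53 (−0.26 to 1.43) for the first row and −0.94 (−1.51 to −0.44) for the second. Between HO and HE it was 0.88 (0.044 to 1.95) for the first row and −0.70 (−1.29 to −0.17) for the second, so the rows differed past counting error in opposite directions. Between HE and WT both ratios were below 0 and within counting error, at −0.35 (−1.46 to 0.63) for the first row and −0.24 (−0.72 to 0.23) for the second. The first row was thus highest in HO, and the second lowest there. The ratio of first-row to second-row counts was 0.702 in HO, 0.217 in HE and 0.241 in WT, and the log2 odds ratio was 1.53 (0.53 to 2.56) for HO against WT and −0.15 (−1.32 to 0.99) for HE against WT. Reads that fit both identifiers could be given to either or left out, which the deposited counts do not show, so each row is uncertain.

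Counted as 1 gene, mmp13a had 80 counts in HO, 84 in HE and 108 in WT, or 5.63, 6.66 and 8.04 CPM. The log2 ratio was then −0.50 (−0.95 to −0.084) for HO against WT, −0.27 (−0.70 to 0.15) for HE against WT and −0.24 (−0.70 to 0.22) for HO against HE. Of the 10 genes it was in this form the one that was highest in WT. With the rows summed, 1 of 10 genes was lower and 0 higher past counting error in both HO comparisons, namely mmp13a against WT (11.6% of all tested genes) and mpx against HE (15.2%). Related metalloproteinase genes were also listed, of which 9 were tested, with a median log2 ratio of −0.016 for HO against WT and −0.44 for HE against WT. The HE median was −0.057 with a minimum mean of 100 counts, and the summed counts of the list gave −0.045 (−0.10 to 0.013). In HE against WT, 1 of the 9 was higher and 4 were lower past counting error (13.1% and 12.3% of all tested genes). In HO against WT, 1 was higher and 3 were lower (11.8% and 11.6%). The more abundant were mmp2, with 2478, 2254 and 2178 counts in HO, HE and WT and a log2 ratio of 0.10 (0.021 to 0.19) for HO against WT, and mmp14b, with 989, 889 and 985. Lower in HO than in WT past counting error, beside mmp9, were mmp14a, with 565, 601 and 660 counts and −0.31 (−0.47 to −0.14), and mmp11a, with 90, 82 and 119 counts and −0.47 (−0.90 to −0.078).

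**Figure D4:**
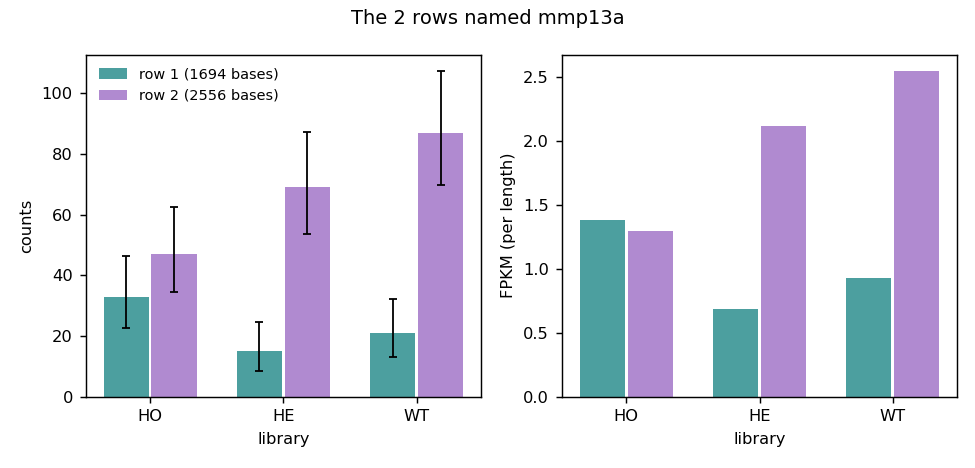
Counts (left, with exact 95% Poisson intervals) and deposited FPKM (right) of the 2 rows named mmp13a in the HO, HE and WT libraries, as bars from 0. The first row had 33, 15 and 21 counts and the second 47, 69 and 87, so that the second row exceeded the first in HE and WT and their intervals overlapped in HO.

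Of 8 listed growth factors of myeloid cells and their receptors, 7 were tested. Their median log2 ratio was −0.22 for HO against WT and −0.39 for HE against WT. The second median was −0.25 on FPKM with a pseudocount of 1. In HO against WT, 5 of the 7 had a ratio below 0 (50.9% of all tested genes). Past counting error 1 was lower and 0 were higher (11.6% and 11.8%). In HE against WT, 5 also had a ratio below 0, but not the same 5 (49.0%). There 2 were lower and 0 higher past counting error (12.3% and 13.1%). Of these 2, csf1ra is also in the list of macrophage genes and is counted there too. The ligand gene csf1a had 136, 125 and 175 counts in HO, HE and WT, and was lower past counting error in HO, with −0.44 (−0.78 to −0.11), and in HE, with −0.39 (−0.74 to −0.055). Its copy csf1b had 103, 92 and 79 counts, with ratios of 0.29 (−0.14 to 0.74) and 0.30 (−0.14 to 0.76). Csf1 and its receptor also act in pigment cells, and the cells of origin are not separated in these libraries.

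Over all the other genes listed for myeloid cells, 53 were tested. They include ligands such as cxcl12a and regulators such as gata2a beside markers of myeloid cells. HO was the lowest library for 19 of the 53 (35.0% of all tested genes), HE for 20 (33.8%) and WT for 14 (31.2%), so that these numbers were near the shares over all genes. Their median log2 ratio was −0.032 for HO against WT, with 5 higher and 4 lower past counting error (11.8% and 11.6% of all tested genes), and −0.007 for HE against WT, with 4 higher and 7 lower (13.1% and 12.3%).

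The markers of other blood cells and of vessels were measured beside these genes. Of the erythroid genes, 9 of 10 were higher in HO than in WT (49.1% of all tested genes) and 6 past counting error (11.8%), with a median log2 ratio of 0.25. In HE against WT, 8 of 10 were higher (51.0% of all tested genes), with a median of 0.19. The largest ratio was that of the globin hbbe1.1, with 10139, 9459 and 3218 counts in HO, HE and WT, followed by hbae1.1 with 1905, 1261 and 819. The other 4 past counting error in HO against WT were the anion exchanger slc4a1a, with 6932, 5349 and 5339 counts, hbbe3 with 3593, 2991 and 2737, hbbe2 with 1097, 1009 and 816, and the haem synthesis gene alas2 with 3361, 2556 and 2754. Of 6 endothelial genes, 1 was higher and 0 lower in HO than in WT past counting error (11.8% and 11.6% of all tested genes). The higher gene was fli1a, with 945, 695 and 783 counts, and cdh5 had 687, 573 and 671. The endothelial sum was 247.6 CPM in HO, 218.1 CPM in HE and 239.6 CPM in WT, so that HE was lowest, unlike the myeloid sum. The mast cell protease gene cpa5 had 81, 74 and 47 counts, with a log2 ratio of 0.68 (0.17 to 1.25) for HO against WT. Thrombocyte and lymphoid genes were at a few counts, with 0 counts of itga2b in each library, 46, 56 and 42 counts of nfe2, which erythroid cells also express, 25, 12 and 18 of fermt3b, 21, 14 and 20 of rag1, 17, 12 and 12 of rag2 and 21, 31 and 20 of the thymic epithelial gene foxn1. Of 9 listed scavenger receptors beside marco, 8 were tested. In HO against WT, 1 of the 8 was lower and 0 higher past counting error (11.6% and 11.8% of all tested genes). The lower gene was scara3, with 38, 50 and 62 counts. Within counting error were scarb2a with 2619, 2147 and 2380, colec12 with 1247, 1095 and 1201, and stab2 with 617, 521 and 584.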

How the data were processed

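RNA-seq of whole embryos was analysed in 3 libraries. The deposited counts are reads per gene as the authors obtained them, without normalization, and the deposited FPKM values were recomputed from count, exonic length and library sum to within 0.005. The paper names TopHat, the GRCz10 genome and Cufflinks, whereas the submitters' processing notes name HISAT2 2.0.2 and GRCz11. The paper names a stranded kit and the labels name others. The counting tool, annotation release and strand setting are not given in the sources used here, so reads of overlapping antisense genes cannot be told apart. The per-library tables held 0 counts that differ from the series table, and 3 FPKM columns of theirs were not used, 1 of which has the heading of a different library. The table of gene names held 29201 of the 32520 identifiers and 10 of the 11 myeloid rows. Symbols are those of the count table.

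Scaling used TMM in edgeR 4.0.16 (R 4.3.3), with factors of 1.004 for HO, 0.989 for HE and 1.007 for WT, and a prior count of 2. Single genes were compared only where their counts averaged 10 or more. The TMM factors used all rows, and the summed counts of a list used all of its rows. Intervals of ratios are exact at 95%, a floor of 3 counts was used, and no test between genotypes was possible. All 10 members are named, as are the 3 most abundant genes of each other list and those past counting error in HO against WT, and other genes were named after their values were seen. The members and lists were chosen with earlier results of these data known. Some genes, such as csf1ra, irf8, csf3r, itgb2, mmp9 and mmp25b, are in more than 1 list, so the lists are not independent of each other. Alternatives were DESeq2 1.42.0 size factors, total counts, pseudocounts of 1 and 0.1 on FPKM, other filters and prior counts, removal of the trend over exonic length in 20 bins, and other sets of genes. The steps were tested on simulated counts, in which libraries differed only by counting error and by changes set in the HO library. Variation between libraries was not simulated, so this test does not bear on it. Python 3.11.15, scipy 1.17.1 and matplotlib 3.10.9 were used. Sequences of the genes were not used here.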

Additional observations from a re-analysis of the deposited data

How the results depend on the processing

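No paired analysis was possible because each genotype had 1 library. The sign of the median of the 11 rows was kept in each of 30 alternatives, and 0 of 252 alternative values of single rows changed sign. Part of these could not change. A different filter on counts does not alter the ratio of a row, and with no filter the same 11 rows give the same median. A different prior count cannot alter the sign of a row either. The pseudocounts on FPKM keep the sign that scaling by total counts gives. Of 402 alternative medians of the other lists, 36 changed sign. The call of cxcr4b in HE against WT ended with scaling by total counts and with the length trend removed. With a minimum mean of 100 counts, which keeps 7 of the 11 rows, those past counting error numbered 0 for HO against WT and 1 for HO against HE. With both mmp13a rows summed the number for HO against HE was also 1. Without mpx the summed level had a log2 ratio of 0.18 for HE against WT and −0.062 for HO against HE. With medians of FPKM ratios in place of summed counts, the granulocyte to macrophage ratio was −0.22 for HE against WT, with the opposite sign to summed counts, and −0.038 for HO against HE. In those medians marco, with 13 to 29 counts, weighs as much as mpeg1.1. The summed mmp13a rows, the sums without mpx and the sets without ctss2.1 and ctss2.2 were chosen after seeing the data. Depth limits spi1b, marco and the first mmp13a row, where 13 to 42 counts per library leave intervals of more than 1 log2 unit in width. The second mmp13a row, with 47 to 87 counts, also had intervals of that width in both HO comparisons. They were −1.51 to −0.44 for HO against WT and −1.29 to −0.17 for HO against HE.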
